A study of Mus musculus with 21 samples.

Results

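Chemokines and chemokine receptors were followed through the culture of sorted mouse nephron progenitors. The members were all genes on the array whose current symbol has one of the stems Cxcl, Ccl, Cxcr or Ccr, a number and at most 1 further letter, and there were 45 of them among 18193 genes: 18 CC ligands, 13 CXC ligands, 9 CC receptors and 5 CXC receptors. The cells came from E16.5 kidneys of mixed background mice and were sorted by flow cytometry on the BAC transgene Six2GFPcre, which Six2 sequences drive in the cap mesenchyme. Fresh cells were measured directly after the sort. Cultures of 40000 cells were kept in DMEM with 10% FBS. Dispersed cells or aggregates, pelleted by centrifugation, spent 24 h in the solvent DMSO or in 4 µM BIO, an inhibitor of the kinase GSK3 that stabilises beta-catenin. Other aggregates spent 24 h in BIO and then 24 h in DMSO (BIO then DMSO), or 48 h in BIO. Each of these 7 groups had 3 arrays, and aggregates after 48 h in DMSO alone were not among the groups, so the second day carries time in culture as well as BIO. All groups carried the Six2 transgene and none was free of the sort. The labels call the arrays biological replicates without naming separate litters, sorts or cultures, so the p-values cover the variation among arrays alone, and that variation could be technical.

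Chemokines are small secreted proteins that guide migrating cells along gradients and signal through receptors coupled to G proteins. CXC and CC ligands are named for the spacing of their first cysteines, and many of them draw neutrophils, monocytes or lymphocytes into inflamed tissue. Cxcl12 and its receptor Cxcr4 differ in being used throughout development, the growth of kidney blood vessels included, and the atypical receptor Ackr3 takes up Cxcl12 without coupling to G proteins.

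The promoters of Cxcr4 and Cxcl12, the receptor and ligand followed first, and of the 3 ligand genes that hold an NF-kB motif are shown here. Promoter windows from RefSeq (GRCm38.p6, 300 bases around the annotated start) were found for 32 of the 45 members, in 36 windows, and were searched on both strands for a 10-letter NF-kB motif with the fifth position free, given here by name, and for the TCF/LEF motif CTTTGAT. The matches of the motifs do not overlap in these windows. The NF-kB motif was in 4 members, Cxcl1, Cxcl2, Cxcl3 and Ccr3, and in 0.411% of all 32851 promoters. The TCF/LEF motif was in 1 member, Cxcl12, and in 3.73% of all promoters. The 250 bases before each start are printed 5′ to 3′ along the gene, with motif letters in capitals.
Cxcl1 (GRCm38.p6 chr5:90890995-90891244, plus strand): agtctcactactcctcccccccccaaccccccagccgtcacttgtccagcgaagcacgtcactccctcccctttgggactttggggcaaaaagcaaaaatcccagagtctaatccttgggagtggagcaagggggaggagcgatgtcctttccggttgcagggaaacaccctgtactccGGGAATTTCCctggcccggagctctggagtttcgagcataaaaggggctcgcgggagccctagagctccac
Cxcl2 (GRCm38.p6 chr5:90903649-90903898, plus strand): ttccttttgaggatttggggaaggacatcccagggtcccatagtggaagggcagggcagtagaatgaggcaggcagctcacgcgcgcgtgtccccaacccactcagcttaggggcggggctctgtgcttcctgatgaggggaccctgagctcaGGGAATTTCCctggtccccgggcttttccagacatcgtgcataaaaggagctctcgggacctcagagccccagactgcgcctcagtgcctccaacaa
Cxcl3 (GRCm38.p6 chr5:90785851-90786100, plus strand): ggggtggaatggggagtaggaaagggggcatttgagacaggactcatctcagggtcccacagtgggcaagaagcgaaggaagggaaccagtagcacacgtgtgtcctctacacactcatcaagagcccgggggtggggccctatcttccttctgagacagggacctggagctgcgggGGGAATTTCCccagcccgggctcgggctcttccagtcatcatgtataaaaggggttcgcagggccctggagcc
Cxcl12 (GRCm38.p6 chr6:117168285-117168534, plus strand): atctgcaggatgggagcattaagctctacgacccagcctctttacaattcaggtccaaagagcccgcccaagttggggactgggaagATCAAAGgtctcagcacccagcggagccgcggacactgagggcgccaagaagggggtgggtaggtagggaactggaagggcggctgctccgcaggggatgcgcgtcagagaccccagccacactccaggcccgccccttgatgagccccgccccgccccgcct
Cxcr4 (GRCm38.p6 chr1:128592300-128592549, minus strand): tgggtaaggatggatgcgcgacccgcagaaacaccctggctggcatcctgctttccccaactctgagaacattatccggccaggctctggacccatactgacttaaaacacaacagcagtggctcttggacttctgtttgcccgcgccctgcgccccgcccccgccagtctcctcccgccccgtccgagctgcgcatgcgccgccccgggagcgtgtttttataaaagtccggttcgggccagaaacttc
The capitals in Cxcl1, Cxcl2 and Cxcl3 are the same 10 letters, GGGAATTTCC, and their first base lies at -71, -97 and -73 from the start. In Cxcl12 they are ATCAAAG, the TCF/LEF motif on the other strand, from -163. Neither motif was found in the Cxcr4 window. A match is only a run of letters, and binding was not measured. In the RefSeq gene order Cxcl3, Cxcl15, Cxcl1 and Cxcl2 follow each other on chromosome 5, in the same stretch as Cxcl5.

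Values are signals, that is quantile-normalized linear intensities, with 1 probe set for each gene. Signals of different genes are not comparable, since each rests on its own probes. Background was a signal of 41.8, which 95% of the signals of 27 bacterial control probe sets over all 21 arrays did not exceed. A group is called above background where its mean log2(signal + 1) is above that level. Differences are given on the log2(signal + 1) scale ± SE of a limma fit with 3 arrays in each group. A gene was called where the p-value adjusted over all 18193 genes was under 0.05, and group differences on these bulk samples cannot tell fewer cells of a type from less RNA per cell. Results of other probe sets of a gene came from a separate fit, with p-values adjusted over all 34945 probe sets that name 1 gene. Where 1 of 2 groups was below background the fold is a bound (at least), and where both were, no fold is given. The deposited array medians were 87.2 to 106, and 76.0 to 79.6% of genes were above background on each array. The 3′ beta-actin control had a signal of 2669 to 5410 in BIO aggregates at 24 h and of 6344 or more on all other arrays, and RNA had been amplified in 2 rounds. As these ranges do not overlap, a fit with the beta-actin signal as a covariate cannot well tell that signal from BIO in aggregates at 24 h. A call lost in such a fit does not show why it was lost. The sorted cells held Six2 (9269.6, 8752 and 8565 in fresh cells). Six2 was lower than in fresh cells in all 4 cultures at 24 h, with 4056, 4829.5 and 5163 in DMSO aggregates and 1906, 1675 and 1804 in BIO aggregates at 24 h, and Cited1, another progenitor marker, was below background in all 6 cultured groups. All 8 Wnt readout genes listed for BIO, Lef1 and Notum among them, were higher with it at 24 h in aggregates and in dispersed cells. Of all genes 17.5 and 15.3% were higher there. Rnf43, one of the listed genes, was below background in both aggregate groups at 24 h. The list was chosen with earlier results of these data known, so it is no independent check of BIO.

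Of the 45 members, 32 were above background in at least 1 group, 16 were so in all 7 groups, and 13 were below background throughout. All 13 CXC ligands were above background somewhere, against 9 of 18 CC ligands, 6 of 9 CC receptors and 4 of 5 CXC receptors. BIO against DMSO in aggregates at 24 h changed 10 members, 6 higher and 4 lower, a share of 22.2% where 30% of all genes were called (17.5% higher and 12.5% lower). When the beta-actin signal was a covariate, 2 members were called, and of the 10 only Cxcl12. The same fit called 2405 of all genes, against 5455 without the covariate. With the deposited scaling the members split into 4 higher and 4 lower, and higher calls over all genes went from 58.4 to 47.1%. In dispersed cells BIO changed 8 members, 3 higher and 5 lower, or 17.8% against 28.7% of all genes (15.3% higher and 13.4% lower), and 5 without dispersed DMSO replicate 2. Cxcr4, Cxcl1, Cxcl12, Cxcl15 and Cxcl5 were called in the same direction in both formats. None of the 45 passed the test of the difference between the BIO effects in aggregates and in dispersed cells (limma, 1.57% of all genes called, 0.726% higher and 0.841% lower). There 3 members had an unadjusted p under 0.05, and the smallest adjusted p was 0.108, for Cxcl2. Aggregates and dispersed cells in DMSO differed in none of the members either (2.62% of all genes called by limma, 1.84% higher and 0.786% lower, 3 members with unadjusted p under 0.05, smallest adjusted p 0.0778). With array weights 1 member, Ccl2, passed the first of these tests and 2, Cxcl9 and Cxcr3, passed the second. Without BIO aggregate replicate 1, Cxcl2 passed the first.

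Against fresh cells, DMSO aggregates changed 16 members, 14 higher and 2 lower, or 35.6% where 32.9% of all genes were called (18.4% higher and 14.5% lower). The Gapdh 3′ to 5′ ratio, a sign of RNA quality, was 8.59 to 10.4 in fresh cells and 13.6 to 15.4 in DMSO aggregates. With it as a covariate 9 members and 3519 genes were called, against 5990 genes without it, and its part in these calls was not tested. Higher calls were 87.5% of those of members and 55.9% of those of all genes. With the deposited scaling 5 members were higher and 2 lower, and higher calls were 71.4 and 51.8%. The count fell to 8 without fresh replicate 1, 10 without fresh replicate 2 or DMSO aggregate replicate 1, and 7 without DMSO aggregate replicate 3. Dispersed DMSO cells changed 9 members against fresh cells, 6 higher and 3 lower where 33.2% of all genes were called (15% higher and 18.3% lower). BIO aggregates changed 12, 11 higher and 1 lower, beside 33.7% of all genes (21.9% higher and 11.8% lower). Dispersed BIO cells changed 5, 4 higher and 1 lower, beside 25.9% of all genes (12.7% higher and 13.3% lower). These 4 comparisons share the fresh arrays. The median log2 difference of the 45 members was 0.38 for DMSO aggregates and 0.55 for BIO aggregates, beside 0.10 and 0.18 for all genes. The deposited scaling shifted the all-gene median for BIO aggregates against fresh cells by -0.14, and higher calls there went from 64.9 to 49.0% of all genes and from 91.7 to 85.7% of members. Single arrays moved these counts too: 5 members were called in dispersed DMSO cells without fresh replicate 1, 7 in BIO aggregates without fresh replicate 2, and 3 in dispersed BIO cells without dispersed BIO replicate 2. On the second day in BIO 7 members changed, 3 higher and 4 lower (20.8% of all genes called, 8.05% higher and 12.8% lower), and the aggregates moved from BIO to DMSO differed from those kept in BIO in 6, 2 higher and 4 lower (20.4%, 9.29% higher and 11.1% lower). In the comparisons with calls, the share of members called lay between 11.1 and 35.6%, and it was above that of all genes only for DMSO aggregates against fresh cells (35.6 against 32.9%).

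Cxcr4, the receptor of Cxcl12, changed with culture and with BIO. It fell when fresh cells were cultured in DMSO, and in BIO at 24 h it stood far above DMSO. Fresh cells had signals of 787, 686 and 583. In DMSO the signals were 64.5, 66.5 and 110.2 in dispersed cells and 32.1, 65.7 and 100.4 in aggregates, a fall from fresh cells by 8.63-fold (log2 -3.11 ± 0.71, adjusted p = 0.00265) and 11.2-fold (-3.49 ± 0.71, adjusted p = 0.00118). In BIO they were 1461, 1466 and 1686 in dispersed cells and 2255, 2307 and 1629 in aggregates. No BIO array overlapped with any DMSO array, and BIO was above DMSO by 19.4-fold in dispersed cells (4.28 ± 0.71, adjusted p = 0.000213) and 33.6-fold in aggregates (5.07 ± 0.71, adjusted p = 4.09e-05). The effects in the 2 formats differed by 0.79 ± 1.004, adjusted p = 0.828. All 6 BIO arrays at 24 h were also above all 3 fresh arrays, but the differences of 1.58 ± 0.71 and 1.17 ± 0.71 did not pass (adjusted p = 0.0994 and 0.267).

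After 48 h in BIO the Cxcr4 signals were 586, 593 and 893, within or above the range of fresh cells and below the 3 BIO aggregates at 24 h, a difference that did not pass (-1.59 ± 0.71, adjusted p = 0.133). When BIO was replaced by DMSO after 24 h the signals were 2.51, 61.1 and 32.9, with the group mean below background. This was at least 13.98-fold lower than in 48 h of BIO (-5.12 ± 0.71, adjusted p = 5.57e-05), with no overlap. The call for BIO in aggregates was lost when the beta-actin signal entered as a covariate (3.70, adjusted p = 0.0825), and the fall in DMSO aggregates with the Gapdh 3′ to 5′ ratio as a covariate (-2.86, adjusted p = 0.0718). The beta-actin signals of BIO and DMSO aggregates at 24 h did not overlap, so that covariate and BIO cannot be told apart there.

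Cxcl12, the ligand of Cxcr4, ran opposite to it at 24 h. It rose in DMSO culture and fell with BIO to below the level of fresh cells. Signals were 1265, 1178 and 1082 in fresh cells, 8565, 8994 and 9211 in dispersed DMSO cells and 8279, 8387 and 8039.9 in DMSO aggregates. The rise over fresh cells was 7.6-fold (2.93 ± 0.26, adjusted p = 2.01e-07) and 7.02-fold (2.81 ± 0.26, adjusted p = 3.65e-07). In BIO the signals were 212, 134 and 163 in dispersed cells and 152, 173 and 185 in aggregates, so that the highest BIO array lay far below the lowest DMSO array. BIO was 53.3-fold below DMSO in dispersed cells (-5.73 ± 0.26, adjusted p = 9.51e-11) and 48.3-fold below it in aggregates (-5.59 ± 0.26, adjusted p = 1.53e-10). Against fresh cells BIO gave -2.81 ± 0.26, adjusted p = 5.22e-07 when dispersed and -2.78 ± 0.26, adjusted p = 7.04e-07 when aggregated.

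On the second day the Cxcl12 signals were 918, 738 and 639 in BIO, a rise of 4.45-fold over BIO at 24 h (2.15 ± 0.26, adjusted p = 1.6e-05). They were 1456, 1549 and 631 after the change to DMSO. The third of these arrays lay within a few units of the lowest BIO array, the groups overlapped, and the difference of 0.57 ± 0.26 did not pass (adjusted p = 0.14). None of these aggregates reached the 8040 or more of the DMSO aggregates at 24 h. Cxcr4 had thus separated the aggregates with and without BIO on the second day, while the Cxcl12 probe set used had not passed the test between them. Levels of stromal markers moved beside Cxcl12 with BIO: the summed signal of 9 interstitial stroma markers was 13034 to 13925 in dispersed DMSO cells, 3508 to 3743 in dispersed BIO cells, 14129.5 to 14953 in DMSO aggregates and 3977 to 4175 in BIO aggregates. It was 13698 to 14984 in fresh cells, where Cxcl12 was lower than in DMSO, and 10509 to 11798 after BIO then DMSO against 2248 to 2827 in 48 h of BIO. All 9 were above background in all groups. The part of these markers in the Cxcl12 result was not tested.

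Ackr3, which removes Cxcl12 from the surroundings of a cell, lies outside the naming rule and was listed as a related gene. It was high in all groups and lower with BIO. Signals were 3831, 4074 and 4137 in fresh cells, 3889, 4703 and 4672 in DMSO aggregates and 2859.7, 2199 and 2099.7 in BIO aggregates, a fall of 1.86-fold with BIO (-0.90 ± 0.14, adjusted p = 9.93e-05). Dispersed cells had 4547, 4529 and 4321 in DMSO and 3401, 3029 and 2755 in BIO (-0.55 ± 0.14, adjusted p = 0.00623). The values on the second day were 1913, 1346 and 1859.6 in BIO and 4950.0, 5234 and 5184 after the change to DMSO, a rise of 3.04-fold with no overlap (1.60 ± 0.14, adjusted p = 3.42e-07). In DMSO aggregates Ackr3 did not pass against fresh cells (0.13 ± 0.14, adjusted p = 0.502), where Cxcl12 had risen and Cxcr4 had fallen. Against fresh cells BIO gave -0.76 ± 0.14, adjusted p = 0.000493 in aggregates and -0.40 ± 0.14, adjusted p = 0.0452 in dispersed cells, and the second day in BIO gave -0.49 ± 0.14, adjusted p = 0.0186. The call in dispersed BIO cells was lost without fresh replicates 1, 2 or 3 or dispersed BIO replicates 2 or 3 (log2 differences -0.43 to -0.32, adjusted p from 0.0645 to 0.166). The call on the second day was lost without BIO aggregate replicate 1 or BIO 48 h aggregate replicate 2 (log2 differences -0.35 to -0.33, adjusted p from 0.0958 to 0.104).

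**Figure D1:**
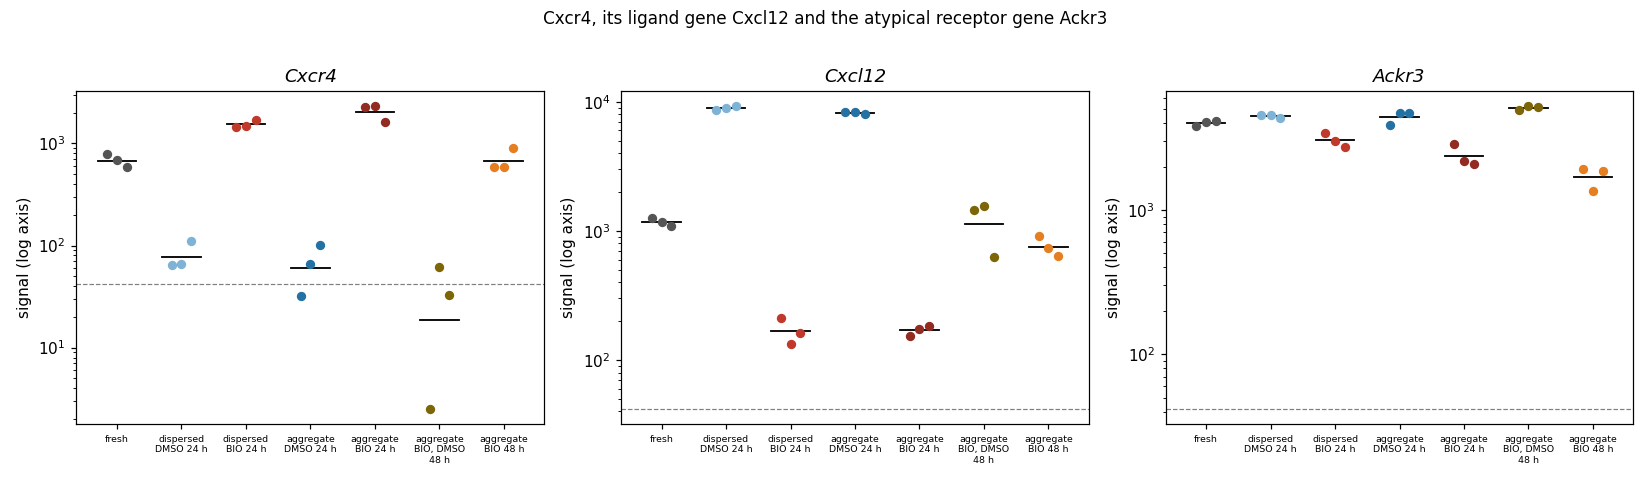
Signals of Cxcr4, Cxcl12 and Ackr3 on each of the 21 arrays, with 7 groups on the x axis and the signal on a log y axis. Points are arrays, bars are the group means of log2(signal + 1) turned back to signals, and the dashed line is background at 41.8. Cxcr4 is high in fresh and BIO groups and low in DMSO groups, Cxcl12 is highest in DMSO at 24 h and lowest in BIO at 24 h, and Ackr3 is at 1346 or more on all arrays.

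Among the ligands of Cxcr2, which draws neutrophils, Cxcl1 rose with BIO in both formats. The receptor gene Cxcr2 itself was below background in all groups. Cxcl1 signals were 365, 494 and 444 in fresh cells, 256, 284 and 429 in dispersed DMSO cells and 364, 257 and 373 in DMSO aggregates. In BIO they were 697, 962 and 790.2 and 794, 1014 and 959.6, all above every fresh and DMSO array. The rise with BIO was 2.57-fold when dispersed (1.36 ± 0.28, adjusted p = 0.00135) and 2.8-fold when aggregated (1.49 ± 0.28, adjusted p = 0.000608). On the second day Cxcl1 was 268, 389 and 550.1 in BIO, below BIO at 24 h (-1.25 ± 0.28, adjusted p = 0.00409), and 280.1, 362 and 539 after the change to DMSO, which overlapped with it (-0.02 ± 0.28, adjusted p = 0.97). BIO was above fresh cells by 1.09 ± 0.28, adjusted p = 0.00653 in aggregates and 0.91 ± 0.28, adjusted p = 0.0237 in dispersed cells, and the second of these calls was lost without fresh replicates 1 or 3 or dispersed BIO replicates 2 or 3 (log2 differences 0.78 to 0.93, adjusted p from 0.0524 to 0.094). The other 2 probe sets of Cxcl1, both above background, gave rises over fresh cells of different size (3.80 and 3.58 in aggregates, 3.73 and 3.32 in dispersed cells) and a fall on the second day (-3.38 and -2.82). The call for BIO in aggregates was lost with the beta-actin covariate (1.23, adjusted p = 0.159).

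Cxcl2, whose promoter holds the same NF-kB letters as that of Cxcl1, rose in all 4 cultures at 24 h, with its highest group mean in BIO aggregates. Fresh cells had 29.9, 34.2 and 44.8, with a mean below background. Dispersed cells had 267, 112 and 249 in DMSO and 119, 197 and 97.8 in BIO, which overlapped (-0.56 ± 0.50, adjusted p = 0.469). Aggregates had 71.3, 105 and 137 in DMSO and 136, 609 and 751 in BIO, where 2 arrays were far above DMSO and replicate 1 was just under the highest DMSO array. The aggregate difference was 3.9-fold (1.96 ± 0.50, adjusted p = 0.00689), a call lost with only the arrays compared (1.96, adjusted p = 0.107) and with the beta-actin covariate (2.94, adjusted p = 0.0515). It exceeded that in dispersed cells by 2.53 ± 0.71, adjusted p = 0.108, and without BIO aggregate replicate 1 by 3.30 with an adjusted p of 0.00427. Against fresh cells all 4 cultures were higher, by at least 4.48-fold in dispersed DMSO cells (2.42 ± 0.50, adjusted p = 0.0013), at least 3.03-fold in dispersed BIO cells (1.85 ± 0.50, adjusted p = 0.0118), at least 2.32-fold in DMSO aggregates (1.47 ± 0.50, adjusted p = 0.0344) and at least 9.07-fold in BIO aggregates (3.43 ± 0.50, adjusted p = 7.49e-05). The call in DMSO aggregates was lost without fresh replicates 1 or 2 or DMSO aggregate replicates 2 or 3 (log2 differences 1.25 to 1.44, adjusted p from 0.0786 to 0.12), and the call in dispersed BIO cells without dispersed BIO replicate 2 (log2 difference 1.56, adjusted p = 0.0598). On the second day Cxcl2 was 73.7, 81.3 and 61.7 in BIO, 5.46-fold below BIO at 24 h (-2.45 ± 0.50, adjusted p = 0.00229), and 37.5, 45.2 and 51.9 in BIO then DMSO.

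Cxcl3, the third gene with that promoter match and also a Cxcr2 ligand, was called in no comparison, with signals of 12.3 to 262 over the 21 arrays. Its differences with BIO were 0.48 ± 0.69, adjusted p = 0.666 in aggregates and -1.36 ± 0.69, adjusted p = 0.168 in dispersed cells. Cxcl5, a further ligand of that receptor, was above background only after 48 h in BIO, with 167, 171 and 131. Its highest signal on any other array was 36.2. Both day 2 differences were at least 3.65-fold, against BIO at 24 h (5.03 ± 0.61, adjusted p = 1.86e-05) and against BIO then DMSO (-5.04 ± 0.61, adjusted p = 1.38e-05). At 24 h Cxcl5 had 30.1, 26.6 and 15.05 in DMSO aggregates and 3.38, 5.39 and 2.93 in BIO aggregates, 27.0, 36.2 and 4.76 and 2.8, 2.87 and 3.17 in dispersed cells, and 3.79, 3.11 and 18.1 in fresh cells. The differences at 24 h passed with all groups below background: BIO against DMSO gave -2.32 ± 0.61, adjusted p = 0.00794 in aggregates and -2.20 ± 0.61, adjusted p = 0.0116 in dispersed cells, and DMSO aggregates gave 1.73 ± 0.61, adjusted p = 0.0384 against fresh cells. The call in dispersed cells was lost without dispersed DMSO replicates 1 or 2 (log2 differences -1.89 to -1.69, adjusted p from 0.0559 to 0.0679), and the call against fresh cells without fresh replicates 1 or 2 or DMSO aggregate replicates 1 or 2 (log2 differences 1.33 to 1.63, adjusted p from 0.0976 to 0.16).

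Cxcl15, the lung-enriched chemokine lungkine, lies between Cxcl3 and Cxcl1 and went the other way with BIO. It had 106, 117 and 125 in DMSO aggregates and 6.32, 13.9 and 50.2 in BIO aggregates, at least 2.57-fold lower with BIO (-2.72 ± 0.74, adjusted p = 0.0103). Dispersed cells had 41.5, 68.8 and 77.3 in DMSO and 4.44, 20.8 and 16.2 in BIO, at least 1.44-fold lower (-2.28 ± 0.74, adjusted p = 0.0295). Neither pair of groups overlapped. Fresh cells, at 40.1, 10.8 and 41.3, were at least 2.73-fold below DMSO aggregates (2.09 ± 0.74, adjusted p = 0.0402), and on the second day Cxcl15 was 66.2, 45.6 and 79.2 in BIO and 9.44, 51.1 and 49.3 in BIO then DMSO. The call in aggregates was lost without BIO aggregate replicate 1 (log2 difference -2.08, adjusted p = 0.0613) and with the beta-actin covariate (-1.38, adjusted p = 0.603), the call in dispersed cells without dispersed DMSO replicates 2 or 3 or dispersed BIO replicate 1 (log2 differences -2.19 to -1.67, adjusted p from 0.079 to 0.146), and the call against fresh cells without fresh replicate 2 or DMSO aggregate replicates 1, 2 or 3 (log2 differences 1.49 to 2.15, adjusted p from 0.0744 to 0.183).

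Cxcl14, a chemokine found in epithelia and resting tissues, rose on the second day in BIO. Signals were 69.8, 89.7 and 79.5 in fresh cells, 84.6, 47.9 and 96.2 and 66.4, 82.6 and 103 in dispersed cells with DMSO and BIO, and 56.3, 61.5 and 99.3 in DMSO aggregates. BIO aggregates had 140.3, 213 and 84.1 at 24 h, a difference from DMSO that did not pass (0.95 ± 0.36, adjusted p = 0.0556). After 48 h in BIO the signals were 658, 458 and 639, above all 18 other arrays, and 4.22-fold above BIO at 24 h (2.08 ± 0.36, adjusted p = 0.000498). With BIO replaced by DMSO they were 61.8, 72.2 and 131, 6.82-fold lower than with BIO throughout (-2.77 ± 0.36, adjusted p = 2.6e-05). Another probe set of Cxcl14 was below background in all other groups, with signals of 2.73 to 24.2 in BIO aggregates at 24 h, and read 475 to 848 in 48 h of BIO. It gave 5.94 ± 0.45, adjusted p = 2.87e-07 for the second day and -7.67 ± 0.45, adjusted p = 7.41e-09 for the change to DMSO, and it passed for BIO in aggregates at 24 h with both groups below background (1.96 ± 0.45, adjusted p = 0.0041). The second-day call of the first probe set was lost with the Gapdh ratio as a covariate (1.501, adjusted p = 0.169).

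Cxcl10, the interferon-induced ligand of Cxcr3, rose in all 4 cultures at 24 h whether or not BIO was present. Fresh cells had 4.93, 8.44 and 7.63, far below background. Dispersed cells had 90.4, 94.9 and 105 in DMSO and 69.7, 95.99 and 53.4 in BIO, and aggregates had 113, 99.1 and 73.9 in DMSO and 108, 124 and 83.7 in BIO. All 12 cultured arrays were above all fresh arrays, with differences of 3.64, 3.20, 3.60 and 3.74 ± 0.24 in the same order (adjusted p = 5.87e-09, 5.36e-08, 8.39e-09 and 1.2e-08) and folds of at least 2.28, 1.68, 2.22 and 2.45. BIO did not pass against DMSO in aggregates (0.14 ± 0.24, adjusted p = 0.712) or dispersed cells (-0.44 ± 0.24, adjusted p = 0.194). By 48 h the signals were 6.16, 4.69 and 7.92 in BIO, at least 2.45-fold below BIO at 24 h (-3.88 ± 0.24, adjusted p = 3.53e-08), and 38.4, 34.5 and 30.3 in BIO then DMSO. Both 48 h groups were below background, and the second was higher (2.30 ± 0.24, adjusted p = 2.4e-06).

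Cxcl9 and Cxcl11, the other Cxcr3 ligands, were not called in those rises. Cxcl9, the neighbour of Cxcl10 on chromosome 5, was above background only in BIO aggregates at 24 h (52.4, 48.7 and 47.2). It was lower in dispersed DMSO cells (19.2, 7.03 and 9.55) than in fresh cells (42.4, 24.0 and 31.1), with both below background (-1.45 ± 0.44, adjusted p = 0.0167), a call lost without fresh replicate 1 or dispersed DMSO replicates 2 or 3 (log2 differences -1.36 to -1.16, adjusted p from 0.0556 to 0.0831). Cxcl11 was called nowhere, at 55.2 to 208. The receptor gene Cxcr3 was above background on every array. Its signals were 139, 148 and 139 in fresh cells, 209.8, 201 and 186 in DMSO aggregates and 182, 278 and 234 in BIO aggregates, higher than fresh cells by 0.49 ± 0.17, adjusted p = 0.0344 and 0.68 ± 0.17, adjusted p = 0.00493. The first of these calls was lost without any single one of the 6 arrays compared (log2 differences 0.45 to 0.53, adjusted p from 0.0501 to 0.0956), and neither held with the deposited scaling (0.29, adjusted p = 0.24 and 0.43, adjusted p = 0.081).

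**Figure D2:**
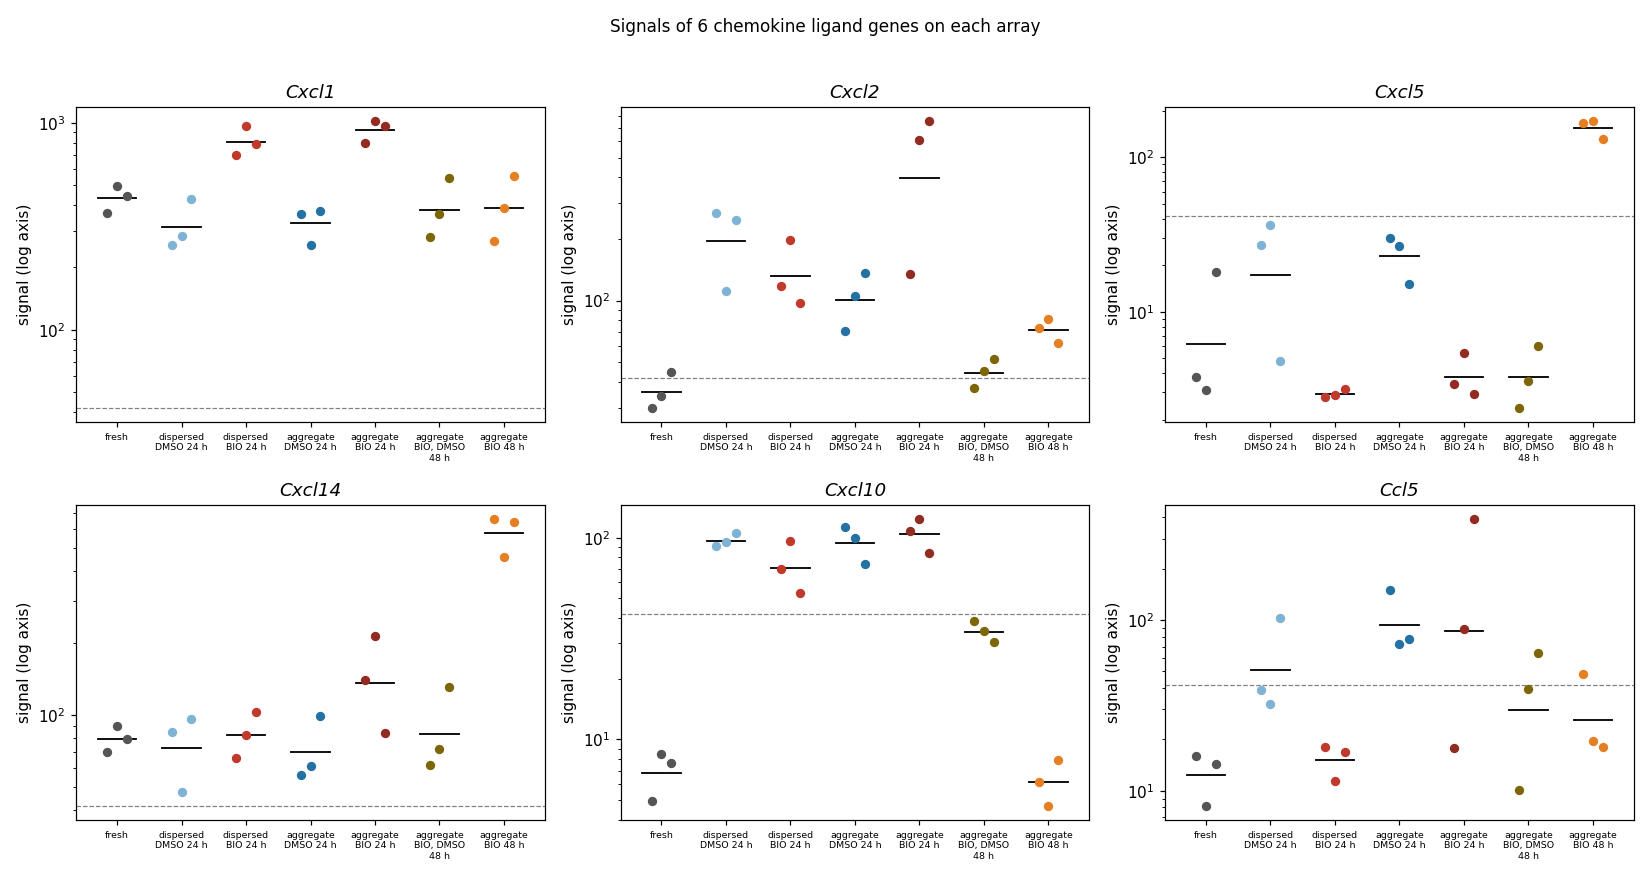
Signals of the ligand genes Cxcl1, Cxcl2, Cxcl5, Cxcl14, Cxcl10 and Ccl5 on each of 21 arrays, by group on the x axis and on log y axes whose ranges differ. Points are arrays, bars are group means of log2(signal + 1) turned back to signals, and the dashed line is background at 41.8. Cxcl5 and Cxcl14 stand out after 48 h in BIO, Cxcl10 is high in all 24 h cultures, and the 3 BIO aggregate arrays of Ccl5 run from 17.7 to 390.3.

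Among CXC ligands with smaller changes, Cxcl16, a membrane-bound ligand of Cxcr6, was higher in BIO aggregates. It had 142, 118 and 123 in fresh cells, 197, 129 and 172 in DMSO aggregates and 215, 231 and 248 in BIO aggregates, a rise of 1.81-fold over fresh cells (0.85 ± 0.17, adjusted p = 0.000866) and 1.41-fold over DMSO (0.49 ± 0.17, adjusted p = 0.0327). The second call was lost without DMSO aggregate replicates 2 or 3 or BIO aggregate replicates 2 or 3 (log2 differences 0.32 to 0.53, adjusted p from 0.0515 to 0.175), and with the mean of both probe sets neither held (0.35, adjusted p = 0.495 and 0.15, adjusted p = 0.815). Cxcr6 had 75.3, 73.9 and 59.8 in fresh cells, 123, 92.5 and 145 in DMSO aggregates and 104, 91.2 and 118 in BIO aggregates. It was above fresh cells by 0.76 ± 0.20, adjusted p = 0.00795 and 0.58 ± 0.20, adjusted p = 0.0369, and the second call was lost without fresh replicates 2 or 3 or BIO aggregate replicates 1 or 3 (log2 differences 0.47 to 0.62, adjusted p from 0.0593 to 0.136). Cxcl17, a mucosal chemokine, had 191, 174 and 249.9 in DMSO aggregates against 99.2, 146 and 153 in fresh cells (0.64 ± 0.21, adjusted p = 0.0264), a call lost without fresh replicate 1 or DMSO aggregate replicate 3 (log2 differences 0.44 to 0.49, adjusted p from 0.123 to 0.133). After 48 h in BIO Cxcl17 had 277, 244 and 251, and the difference from BIO at 24 h did not pass (0.44 ± 0.21, adjusted p = 0.155).

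Of the 18 CC ligands 9 were below background in all groups. Ccl5, which draws T cells and monocytes, had 16.1, 8.19 and 14.45 in fresh cells, 149, 71.9 and 77.4 in DMSO aggregates and 17.7, 88.6 and 390.3 in BIO aggregates, where the arrays were widely spread. Aggregates were at least 2.22-fold above fresh cells in DMSO (2.82 ± 0.86, adjusted p = 0.0184) and at least 2.67-fold in BIO (2.69 ± 0.86, adjusted p = 0.0234). Dispersed cells had 39.0, 32.4 and 102 in DMSO and 18.1, 11.4 and 16.9 in BIO, neither different from fresh cells by the test (DMSO 1.95 ± 0.86, adjusted p = 0.0977). The DMSO call was lost without fresh replicate 2 or DMSO aggregate replicate 1 (log2 differences 2.49 to 2.55, adjusted p from 0.0669 to 0.0685), and the BIO call without fresh replicate 2 or BIO aggregate replicates 2 or 3 (log2 differences 1.61 to 2.67, adjusted p from 0.0569 to 0.126). Ccl4, a macrophage inflammatory protein, rose slightly from 155, 191 and 197 in fresh cells to 258, 256 and 326 in DMSO aggregates (0.63 ± 0.20, adjusted p = 0.0223), 248, 241 and 311 in dispersed DMSO cells (0.56 ± 0.20, adjusted p = 0.0395) and 255, 305 and 228 in BIO aggregates (0.53 ± 0.20, adjusted p = 0.0473). These calls were lost without fresh replicate 1 or DMSO aggregate replicate 3 (log2 differences 0.51 to 0.52, adjusted p from 0.0897 to 0.0971), then without fresh replicates 1, 2 or 3 or dispersed DMSO replicates 1 or 3 (log2 differences 0.44 to 0.62, adjusted p from 0.0507 to 0.156), and last without fresh replicates 1, 2 or 3 or BIO aggregate replicates 1 or 2 (log2 differences 0.42 to 0.60, adjusted p from 0.061 to 0.17). With the deposited scaling the aggregate calls did not hold (0.50, adjusted p = 0.0741 and 0.26, adjusted p = 0.378).

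Ccl3, the neighbour of Ccl4 and a ligand of Ccr1, was above background only in dispersed DMSO cells. It had 55.1, 16.1 and 121 there, 10.7, 13.0 and 5.00 in fresh cells and 16.52, 5.71 and 5.36 in dispersed BIO cells. The group was at least 1.55-fold above fresh cells (2.30 ± 0.76, adjusted p = 0.0283) and at least 1.55-fold above BIO (BIO minus DMSO -2.43 ± 0.76, adjusted p = 0.0241), although 1 BIO array was just above the lowest DMSO array. The first call was lost without fresh replicates 1 or 3 or dispersed DMSO replicates 1 or 3 (log2 differences 1.64 to 2.42, adjusted p from 0.0509 to 0.147), and the second without dispersed DMSO replicates 1 or 3 or dispersed BIO replicates 2 or 3 (log2 differences -2.33 to -1.77, adjusted p from 0.0682 to 0.127). Ccl2, which draws monocytes through Ccr2, had 106, 79.4 and 99.6 in dispersed DMSO cells and 33.2, 56.0 and 54.3 in dispersed BIO cells, a fall of 2.00-fold with no overlap (-1.0 ± 0.23, adjusted p = 0.0032). In aggregates it was 123, 74.3 and 91.7 in DMSO and 93.2, 133 and 77.1 in BIO (0.06 ± 0.23, adjusted p = 0.875), and the difference between the 2 BIO effects, 1.06 ± 0.32, did not pass (adjusted p = 0.144). With array weights it did (1.25, adjusted p = 0.0402). Leukocyte markers moved beside these falls: the summed signal of 11 markers was 1878 to 2115 in dispersed DMSO cells and 915 to 1025 in dispersed BIO cells, 1958 to 2261 in DMSO aggregates, 1204 to 1879 in BIO aggregates and 1665 to 2021 in fresh cells. Of the 11, 5 were lower with BIO in dispersed cells, where 13.4% of all genes were lower. Itgam, Aif1 and Cd3e were below background in all groups. The part of these markers in the Ccl2 and Ccl3 results was not tested.

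Ccl27a, a skin chemokine that binds Ccr10, was with Cxcr4 one of 2 members lower than fresh cells in DMSO aggregates, and it was lower in dispersed DMSO cells too. Signals were 460.1, 414 and 407 in fresh cells, 237, 191 and 162 in dispersed DMSO cells and 183, 156 and 179 in DMSO aggregates. All 6 DMSO arrays were below all fresh arrays (-1.13 ± 0.27, adjusted p = 0.00342 and -1.30 ± 0.27, adjusted p = 0.00125). BIO aggregates had 354, 412 and 202, 1.79-fold above DMSO (0.84 ± 0.27, adjusted p = 0.0254). That call was lost without DMSO aggregate replicates 2 or 3 or BIO aggregate replicates 1 or 2 (log2 differences 0.63 to 0.87, adjusted p from 0.0505 to 0.124), and the difference turned to -0.29, adjusted p = 0.72 with the beta-actin covariate. Other probe sets name this gene together with near-identical copies, so its signal may include theirs. Ccl25, which draws thymocytes through Ccr9, was higher in dispersed BIO cells (242, 203 and 262) than in dispersed DMSO cells (158, 95.3 and 170.0, 0.77 ± 0.27, adjusted p = 0.0407) and fresh cells (155, 149.7 and 106, 0.79 ± 0.27, adjusted p = 0.0389). These calls were lost without dispersed DMSO replicate 2 or dispersed BIO replicates 1 or 3 (log2 differences 0.51 to 0.75, adjusted p from 0.0972 to 0.202) and without fresh replicates 2 or 3 or dispersed BIO replicates 1 or 3 (log2 differences 0.62 to 0.87, adjusted p from 0.0572 to 0.162).

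Ccl17, a ligand of Ccr4, had 83.6, 150.0 and 59.3 after 48 h in BIO and 22.2, 36.5 and 38.7 in BIO then DMSO, at least 2.14-fold lower (-1.49 ± 0.42, adjusted p = 0.0179). It had 66.4, 102 and 60.3 in BIO aggregates at 24 h and 14.7, 34.4 and 60.8 in fresh cells (1.21 ± 0.42, adjusted p = 0.0354), which overlapped. BIO did not pass against DMSO at 24 h in aggregates (44.7, 63.6 and 76.5 in DMSO, 0.30 ± 0.42, adjusted p = 0.659) or in dispersed cells (46.7, 60.3 and 47.0 in DMSO, 38.0, 42.4 and 53.2 in BIO, -0.20 ± 0.42, adjusted p = 0.783). The first call was lost without BIO-then-DMSO aggregate replicate 1 or BIO 48 h aggregate replicate 2 (log2 differences -1.25 to -1.13, adjusted p from 0.0831 to 0.0986), and the second without fresh replicates 1 or 2 or BIO aggregate replicates 1 or 2 (log2 differences 0.69 to 1.29, adjusted p from 0.0587 to 0.186). Ccl8, a monocyte attractant, was 1.38-fold higher in DMSO aggregates (204, 204 and 187) than in fresh cells (149.9, 126 and 156, 0.46 ± 0.17, adjusted p = 0.0445), and this call was lost without any single one of the 6 arrays compared (log2 differences 0.37 to 0.52, adjusted p from 0.0541 to 0.162).

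Of the 9 CC receptors 3 were below background in all groups and only Ccr6 was above it in all 7. Ccr6, the receptor of Ccl20, had 23.6, 80.3 and 89.7 in fresh cells, 94.9, 133 and 125 in dispersed DMSO cells and 99.4, 124 and 173 in DMSO aggregates, with every DMSO array above every fresh array. It rose by 2.07-fold (1.05 ± 0.37, adjusted p = 0.0397) and 2.29-fold (1.197 ± 0.37, adjusted p = 0.0209). Fresh replicate 1 was well below the other fresh arrays. The first call was lost without fresh replicate 1 or dispersed DMSO replicates 2 or 3 (log2 differences 0.45 to 0.999, adjusted p from 0.1 to 0.209), and the second without fresh replicate 1 or DMSO aggregate replicate 3 (log2 differences 0.60 to 0.99, adjusted p from 0.0859 to 0.0919). Ccr9, the receptor of Ccl25, was below background in fresh cells (31.3, 22.4 and 26.8). It was at least 1.47-fold higher in BIO aggregates (75.5, 46.6 and 67.5, 1.19 ± 0.30, adjusted p = 0.00625) and at least 1.21-fold higher in DMSO aggregates (65.3, 34.1 and 48.1, 0.81 ± 0.30, adjusted p = 0.0494). The second of these was lost without fresh replicates 1, 2 or 3 or DMSO aggregate replicates 1 or 3 (log2 differences 0.59 to 0.93, adjusted p from 0.0543 to 0.199), and with the mean of its probe sets neither held (0.17, adjusted p = 0.728 and 0.63, adjusted p = 0.16).

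Ccr1, a receptor of Ccl3 and Ccl5 on monocytes and neutrophils, had 67.4, 66.2 and 100.3 in DMSO aggregates and 31.97, 35.7 and 6.4 in BIO aggregates, at least 1.81-fold lower with BIO (-1.90 ± 0.64, adjusted p = 0.0343). The call was lost without DMSO aggregate replicates 1, 2 or 3 or BIO aggregate replicate 3 (log2 differences -2.00 to -1.16, adjusted p from 0.0596 to 0.182). Another probe set of Ccr1, below background in all groups, went the other way (2.37 ± 0.66, adjusted p = 0.0151), and the mean of both gave 0.24, adjusted p = 0.799. No direction can be given for Ccr1 from these arrays.

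**Figure D3:**
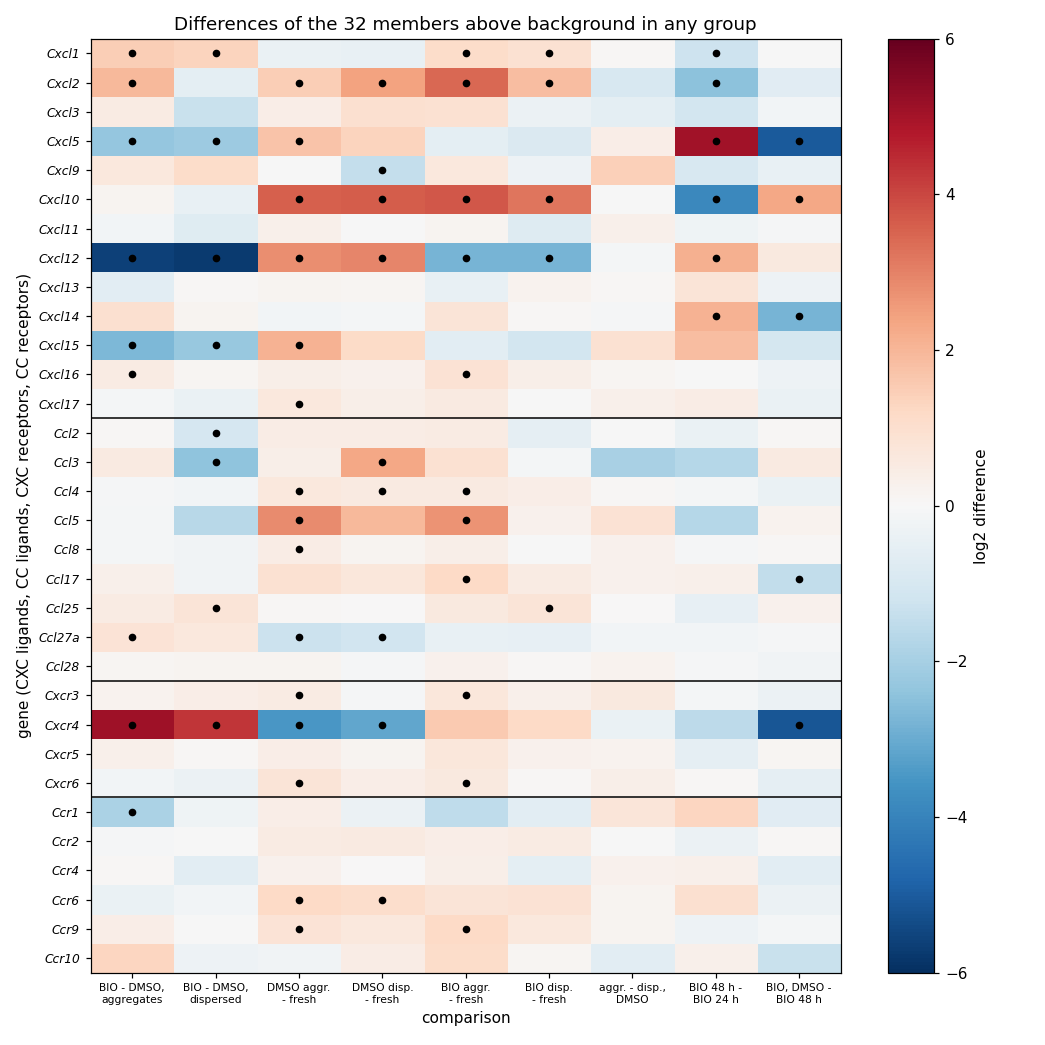
Log2 differences of the 32 members above background in at least 1 group, 1 row for each gene and 1 column for each of 9 comparisons, with CXC ligands, CC ligands, CXC receptors and CC receptors separated by lines. Red is higher and blue lower in the group named first, and dots mark adjusted p under 0.05 by limma. The column of aggregates against dispersed cells in DMSO holds no dot, and Cxcr4 and Cxcl12 have opposite colours in the columns of BIO against DMSO and of DMSO against fresh.

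The 8 members above background but called in no comparison were Ccl28 (181.6 to 308 over 21 arrays), Ccr10 (10.4 to 165), Ccr2 (21.6 to 78.8), Ccr4 (22.6 to 97.7), Cxcl11, Cxcl13 (23.0 to 188), Cxcl3 and Cxcr5 (24.5 to 69.5). Cxcl13 and its receptor Cxcr5 organise B cell follicles, and Ccl28 and Ccr10 act at mucosal surfaces. The 13 members below background in all groups were Ccl1, Ccl6, Ccl7, Ccl9, Ccl11, Ccl12, Ccl20, Ccl22, Ccl24, Ccr3, Ccr7, Ccr8 and Cxcr2. Ccl7, Ccl9 and Ccl24 were called in some comparison with both groups below background, so no fold is given. Ccl2 stood above background next to 5 neighbours on chromosome 11 (Ccl7, Ccl11, Ccl12, Ccl8 and Ccl1) of which Ccl8 alone was also above it. A further 4 probe sets named a member together with other genes, the Ccl27a, Ccl21 and Ccl19 groups of near-identical copies, and were not used.

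For 16 members the array had more than 1 probe set, which allowed the calls to be set against other probes for the same gene. The p-values of the other probe sets were adjusted over 34945 probe sets and not over 18193 genes. The other probe sets gave 45 such results for called differences, of which 25 passed in the same direction, 2 in the opposite direction and 18 did not pass. Where the other probe set was above background in at least 1 group of the series, not always a group compared, 23 of 28 passed in the same direction and 1 in the opposite. For Cxcl12, a second probe set gave -5.38 ± 0.25, adjusted p = 3.25e-10 for BIO in aggregates and 2.50 ± 0.25, adjusted p = 1.41e-06 for DMSO aggregates against fresh cells, close to the first. Another, near background, was the opposite one (2.33 ± 0.63, adjusted p = 0.0106 for BIO aggregates against fresh cells). It did not pass for BIO against DMSO in aggregates (0.38 ± 0.63, adjusted p = 0.736) or in dispersed cells (-0.84 ± 0.63, adjusted p = 0.413). For BIO then DMSO against 48 h of BIO this near-background probe set passed as lower (-2.16 ± 0.63, adjusted p = 0.0295), where the probe set used did not pass. For Cxcl1, the other 2 probe sets were also higher with BIO in aggregates (1.90 ± 0.50, adjusted p = 0.011, and 2.04 ± 0.50, adjusted p = 0.0068). They also gave a rise in DMSO aggregates over fresh cells (1.90 ± 0.50, adjusted p = 0.00923, and 1.54 ± 0.50, adjusted p = 0.0295) where the first gave -0.40 ± 0.28, adjusted p = 0.305. For BIO against fresh cells they gave 3.80 ± 0.50, adjusted p = 3.78e-05, and 3.58 ± 0.50, adjusted p = 6.35e-05 in aggregates, and 3.73 ± 0.50, adjusted p = 5.02e-05, and 3.32 ± 0.50, adjusted p = 0.00015 in dispersed cells. The second day in BIO gave -3.38 ± 0.50, adjusted p = 0.000202, and -2.82 ± 0.50, adjusted p = 0.000962. Cxcr4, Cxcl2, Cxcl5 and Cxcl10 had 1 probe set each, and no such comparison could be made.

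**Figure D4:**
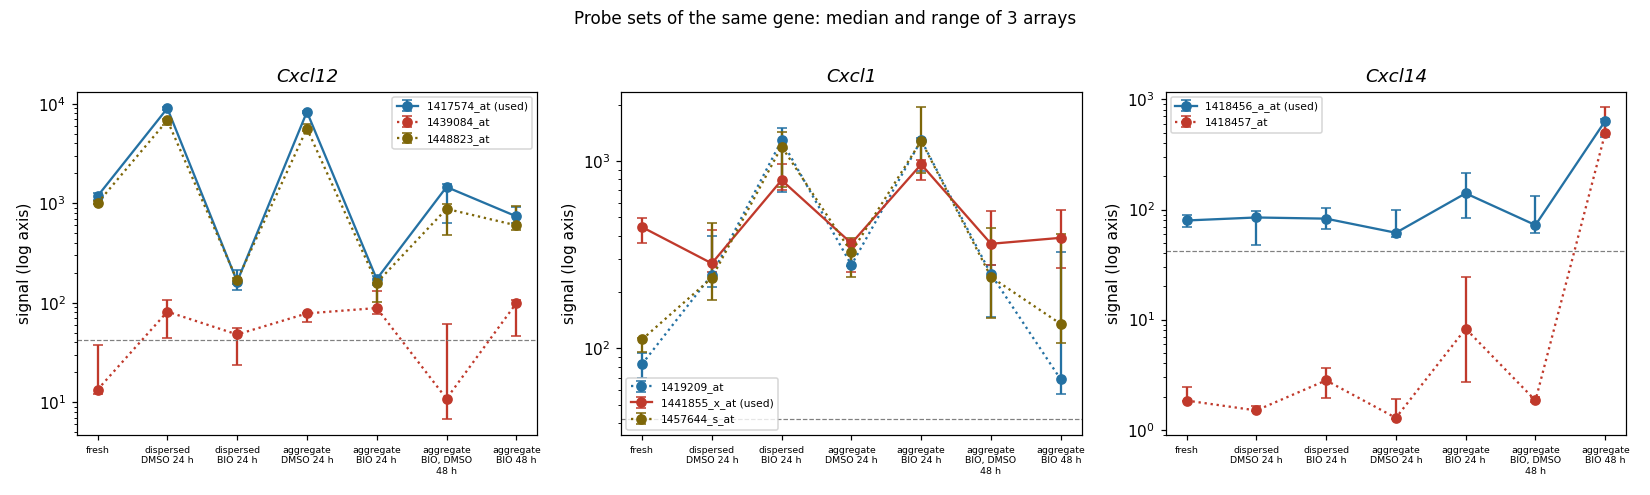
Probe sets of Cxcl12, Cxcl1 and Cxcl14, with the 7 groups on the x axis and the signal on a log y axis. Points are medians and error bars the range of 3 arrays, the solid line is the probe set used, and the dashed line is background at 41.8. Of the 3 Cxcl12 probe sets 2 run together and the other stays near background, and the median of the Cxcl1 probe set used is lower in DMSO cells at 24 h than in fresh cells, while those of the other 2 are higher.

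With BIO in aggregates 17.5% of all genes were higher and 12.5% lower, with a median log2 difference of 0.09. The median of 11 related genes of the chemokine system outside the naming rule was -0.39. None of the 11 was higher and 3 were lower. Besides Ackr3 these were Cx3cl1, the membrane-bound fractalkine (206, 337 and 339.9 in DMSO, 163, 145 and 164 in BIO, -0.86 ± 0.15, adjusted p = 0.000368), and Ppbp, a platelet chemokine that sits beside Cxcl5 (88.9, 121 and 105 and 45.8, 5.5 and 28.4, -2.34 ± 0.74, adjusted p = 0.0249). Cx3cl1 had risen in DMSO aggregates over fresh cells (1.78 ± 0.15, adjusted p = 1.75e-07), and with the mean of its probe sets its difference with BIO was 0.03 (adjusted p = 0.962). The Ppbp call was lost without DMSO aggregate replicates 2 or 3 or BIO aggregate replicate 2 (log2 differences -2.33 to -1.50, adjusted p from 0.059 to 0.141). Of 17 genes for signalling and desensitisation below the receptors, 2 were higher and 4 lower with BIO in aggregates, or 6 of 17 where 30% of all genes were called, with a median of -0.16 beside 0.09 for all genes. Rgs16, which ends G protein signals, fell from 1371, 979 and 1455 to 242, 278 and 210.3 (-2.37 ± 0.22, adjusted p = 5.98e-07), after a rise from 85.3, 136 and 119 in fresh cells to DMSO aggregates (3.48 ± 0.22, adjusted p = 6.31e-09). Of the arrestins, which uncouple receptors, Arrb1 was lower (-1.10 ± 0.22, adjusted p = 0.00123) and Arrb2 higher with BIO (0.63 ± 0.12, adjusted p = 0.00068).

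A further list held 19 NF-kB and inflammatory genes that are known inducers or companions of chemokines. In DMSO aggregates 11 of the 19 were higher and 1 lower than in fresh cells, beside 18.4 and 14.5% of all genes. Their median was 1.01 beside 0.10 for all genes. With BIO in aggregates 1 was higher and 8 were lower than in DMSO, beside 17.5 and 12.5% of all genes (median -0.26 beside 0.09). In dispersed cells none was higher and 9 were lower, beside 15.3 and 13.4% (median -0.67 beside 0.02). Ptgs2, the inducible cyclooxygenase, had 2.32, 2.47 and 2.61 in fresh cells, 2438, 3887 and 3695 in DMSO aggregates and 67.4, 39.7 and 77.5 in BIO aggregates, 54.3-fold lower with BIO (-5.76 ± 0.28, adjusted p = 2.61e-10). Socs3, an inhibitor of cytokine signals, was lower with BIO by 2.1-fold (-1.07 ± 0.16, adjusted p = 7.7e-05), and Tnfaip3, an NF-kB inhibitor that NF-kB induces, by 2.16-fold (-1.11 ± 0.17, adjusted p = 9.2e-05). The Socs3 call was lost with the beta-actin covariate (-0.87, adjusted p = 0.0775), and that of Tnfaip3 with the mean of its probe sets (-0.72, adjusted p = 0.238). Cxcl1 and Cxcl2, the members with an NF-kB match that were called, were higher with BIO in aggregates. Most called genes of this list were lower there. In dispersed cells Cxcl1 was higher with BIO and Cxcl2 did not pass. The part of NF-kB in these differences was not tested. Tnf and Il6 were below background in all groups.

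Markers of other cells that a sort could hold were counted for BIO against DMSO in aggregates. There 30% of all genes were called, 17.5% higher and 12.5% lower. For BIO in aggregates, 7 of 9 stroma markers were lower and none higher (median -1.98), with Foxd1, the stromal transcription factor, at 5060.3, 4510.4 and 4635 in DMSO and 883, 889.6 and 1096 in BIO (-2.31 ± 0.15, adjusted p = 6.15e-09), and Pdgfrb (-2.50 ± 0.24, adjusted p = 8.5e-07) and Col3a1 (-2.02 ± 0.10, adjusted p = 4.02e-10) likewise lower. Of 11 leukocyte markers 1 was higher and 2 lower: the macrophage receptor gene Csf1r at 762, 550.4 and 656 in DMSO and 287, 322 and 287 in BIO (-1.12 ± 0.17, adjusted p = 7.6e-05), Cd52 (-1.59 ± 0.55, adjusted p = 0.0383) and, higher, Cd68 (0.72 ± 0.24, adjusted p = 0.0303). The calls of Cd52 and Cd68 were each lost without any of 5 single arrays (adjusted p up to 0.115 and 0.122). With the beta-actin covariate the calls of Cd52, Cd68 and Tek were lost (-1.69, adjusted p = 0.362, then 0.88, adjusted p = 0.246, and 1.01, adjusted p = 0.304). Of 10 endothelial markers, cells that carry Cxcr4, 1 was higher, Tek (2.03 ± 0.34, adjusted p = 0.000216), and Tie1 was below background in all groups. Their summed signal was 895 to 1166 in DMSO aggregates and 1149 to 1539 in BIO aggregates, 788 to 898 and 817 to 918 in dispersed DMSO and BIO cells, 1038 to 1248 in fresh cells, 1082 to 1397 in BIO then DMSO and 1463 to 1889.8 in 48 h of BIO. Pecam1, a defining endothelial gene, was above background in 2 of 7 groups, and the part of these markers in the Cxcr4 result was not tested. Of 10 ureteric bud markers 2 were higher, Wnt11 (0.51 ± 0.12, adjusted p = 0.0043) and Calb1 (0.93 ± 0.29, adjusted p = 0.0254), and the Calb1 call was lost without DMSO aggregate replicates 1 or 2 or BIO aggregate replicate 3 (log2 differences 0.58 to 0.92, adjusted p from 0.0619 to 0.14). Of 11 nephron progenitor markers 5 were higher and 5 lower with BIO in aggregates, with Uncx (2.22 ± 0.17, adjusted p = 3.85e-08), Sall1 (1.73 ± 0.13, adjusted p = 3.62e-08) and Itga8 (1.69 ± 0.12, adjusted p = 1.37e-08) among the higher ones.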

How the data were processed

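RNA from 21 samples was amplified in 2 rounds and hybridised to single-colour mouse arrays, per the labels' protocols. The deposited values are linear intensities of 45101 probe sets, between 0.1 and 18025, and how they were summarised and scaled is not given in the sources used here. Their log2(value + 1) was quantile-normalized between arrays. RefSeq named 34742 probe sets through the platform annotation and that annotation alone named 203, 932 named several genes and 9160 none. For each of 18193 genes 1 probe set was used, that with the highest mean log2 value. All 21 arrays entered 1 limma fit (limma 3.58.1, R 4.3.3) with a mean for each group, with Benjamini-Hochberg adjustment of p-values across the genes and a threshold of 0.05. The number of arrays limits the precision.

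The members and gene lists were chosen with earlier results of these data known. Members above background and called in at least 1 comparison, and Cxcr4, Cxcl5, Cxcl12 and Ackr3, are described with values; of other lists at most 3 genes, those with the smallest adjusted p for BIO in aggregates, and marker genes used as checks. Alternatives covered scaling, filters, probe set rules, array weights, covariates, a replicate block and the leaving out of each array. Arrays with the same replicate number were not more alike: over 63 pairs the mean correlation of deviations was -0.04, and 10 pairs were above 0.1. Over 126 pairs with other numbers the mean was 0.018, and 31 pairs were above 0.1. Whether arrays of equal number shared a litter or sort cannot be told from this, and the labels do not say.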

Additional observations from a re-analysis of the deposited data

How the results depend on the processing

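The differences fitted again were not of members alone. They included Ackr3 and the genes of other lists named for BIO in aggregates, which were picked for a small adjusted p. Over 97 called gene differences and 1841 alternative fits, 1556 kept the direction and the call, 282 kept the direction and lost the call, and 3 turned. The 3 were, for BIO in aggregates, Ccl27a with the beta-actin covariate (-0.29), and Ccr1 (0.24) and Cx3cl1 (0.0255) with the mean of all probe sets. The cause of these changes and of the moves in counts of called members was not tested. With the beta-actin covariate BIO changed 2 members in aggregates, 5 in dispersed cells and 6 in aggregates against fresh cells. Calls over all genes went from 5455 to 2405, from 5230 to 4989 and from 6129 to 2215 in these comparisons. With the Gapdh ratio 9 changed in DMSO aggregates against fresh cells, 4 on the second day in BIO, and 1 between DMSO aggregates and dispersed cells. Over all genes the calls went from 5990 to 3519, from 3792 to 1179 and from 477 to 227. With the deposited scaling 7 changed in DMSO and 7 in BIO aggregates against fresh cells, where 5611 and 5207 of all genes were called. A 2-fold minimum left 9, 7 and 3 members for DMSO aggregates, BIO aggregates and dispersed BIO cells against fresh cells. It left 2116, 1939 and 1680 of all genes. With only the arrays compared BIO changed 5 members in aggregates, and 8 in dispersed cells against fresh cells. These fits called 3847 and 4095 of all genes. Array weights gave 8 for dispersed BIO cells against fresh cells, 1 for the difference between formats with BIO and 2 for that in DMSO. Among all genes they gave 5847, 545 and 829.

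Leaving out 1 array at a time gave 7 to 8 called members for BIO in aggregates, 5 to 7 for BIO in dispersed cells, 0 to 1 for their difference, 4 to 8 for BIO then DMSO, and 6 to 8 for the second day. Against fresh cells it gave 7 to 14 for DMSO aggregates, 5 to 10 for dispersed DMSO cells, 7 to 12 for BIO aggregates and 3 to 4 for dispersed BIO cells, and it gave 0 throughout for aggregates against dispersed cells in DMSO. Arrays of the same number were not more alike (2 of 21 correlated best with their own number). With the replicate block 91 of 97 gene differences kept their call and 6 lost it. Ackr3 in dispersed BIO cells against fresh cells and the Ccr9 difference of 0.81 in DMSO aggregates were among the 6. Signals near background, amplification in 2 rounds and 3 arrays in each group limit what could be detected among the weaker members.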
